A study of Homo sapiens with 6 samples.

Results

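The Rab GTPase family was examined in SK-MES-1 cells, an established line from a human lung squamous cell carcinoma, by RNA sequencing of 6 libraries. Members were the protein-coding genes whose symbol is RAB, a number and at most 1 letter and 1 further digit, with RAB39A and RAB39B left out. This gave 61 of the 58735 genes in the table, and 63 genes carried such a symbol. Group si1 (2 libraries) and group si2 (2 libraries) held cells with transient knockdown of the keratin gene KRT6A, and group NC (2 libraries) held control cells. These groups are read from the library names and the series' design; the names are not explained in the labels, which also leave out the knockdown reagents and the time of harvest. All 3 groups share the same line. Whether the 2 replicates of a group are different cultures is not stated in the labels, so the p-values may measure only technical spread between libraries.

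Rab proteins are small GTPases that mark the membranes of the secretory and endocytic routes. An exchange factor loads a Rab with GTP on its membrane, the active Rab recruits effectors such as motors and tethers, and a GTPase-activating protein ends the cycle. A lipid added near the end of the protein holds the Rab on the membrane.

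KRT6A (chr12:52487174-52493257, hg38), the stated target, had 0 reads in all 6 libraries, which allows at most 0.0583 to 0.0678 FPKM per library, so the knockdown could not be checked in these data. The libraries held 14948607 to 17401392 recovered reads each. Among defining markers of the labelled cell type, 2 of 8 squamous and basal markers reached a mean of 1 FPKM (TP63 and PKP1), and KRT6A and DSG3 were at 0 in every library. TP63 was at 5.37 and 5.34 in si1, 12.8 and 10.9 in si2 and 5.97 and 6.25 in NC (FPKM), higher in si2, and PKP1 at 18.9 and 17.9 in si1, 9.9 and 9.91 in si2 and 19.5 and 18.4 in NC (FPKM), lower in si2; the summed list spanned 23.7 to 25.3 FPKM in si1, 21.9 to 24.3 in si2 and 25.6 to 25.9 in NC. All 4 mesenchymal and 5 of 6 simple epithelial markers reached 1 FPKM. The summed simple epithelial markers spanned 370 to 376 FPKM in si1, 264 to 277 in si2 and 355 to 379 in NC, and the summed mesenchymal markers 419 to 419 FPKM in si1, 425 to 430 in si2 and 347 to 350 in NC. Within the mesenchymal list FN1 was at 165 and 132 in si1, 194 and 199 in si2 and 101 and 101 in NC (FPKM), while CDH2, at 36.2 and 34.9 in si1, 38.8 and 39.4 in si2 and 42.3 and 41.8 in NC, was lower in every knockdown library and VIM, at 212 and 246 in si1, 189 and 179 in si2 and 197 and 201 in NC, was lower than NC in si2. Fibroblast markers, 2 of 4 at 1 FPKM and COL1A2 at 0, summed to 19.4 to 24.4 FPKM in si1, 22.1 to 22.1 in si2 and 16.4 to 16.7 in NC. Their part in the results below was not tested. Leukocyte and endothelial markers summed to at most 1.71 and 0.441 FPKM in any library.

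Summed over the family, Rab transcripts held 748 and 789 FPKM in the si1 libraries, 759 and 768 FPKM in the si2 libraries and 767 and 770 FPKM in the NC libraries, or 0.259% to 0.27% of all FPKM. FPKM scales reads by gene length and by depth, so levels of different genes are compared per length. The total moved little while single members moved in both directions. In NC cells, 21 members averaged 10 FPKM or more, and the 4 most abundant took 36.4% of the Rab total. These were RAB7A (late endosomes and lysosomes), RAB1A (transport between the endoplasmic reticulum and the Golgi), RAB10 (exocytosis) and RAB32 (lysosome-related organelles), with means of 97.3, 63.3, 59.8 and 59 FPKM. RAB11B, RAB1B, RAB6A, RAB14, RAB11A and RAB34 followed, from 42.8 down to 23.7 FPKM. Of the 42 pairs of neighbours in the NC order among the members tested, 22 had overlapping ranges over the 2 NC libraries, so the order is not resolved there.

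Of the 61 members, 43 reached a mean of 1 FPKM over the 6 libraries and were tested, and 18 did not. RAB19, RAB25 and RAB44 had 0 reads in every library, which allows at most 0.199, 0.117 and 0.0464 FPKM, counting error only. RAB25 is a RAB11 relative of epithelial recycling endosomes, and RAB44 is a large Rab studied in mast cells. A further 7 members held 1 to 100 reads over all 6 libraries. RAB26, RAB40B and RAB43 lay just under the filter, at means of 0.986, 0.813 and 0.805 FPKM, and RAB30 just above it, at 1.02 FPKM. Of the RAB3 genes, which act in regulated secretion, RAB3A averaged 0.739 FPKM and RAB3B 0.134 FPKM, RAB3C had 1 read in all, and RAB3D was tested at a mean of 2.12 FPKM.

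**Figure D1:**
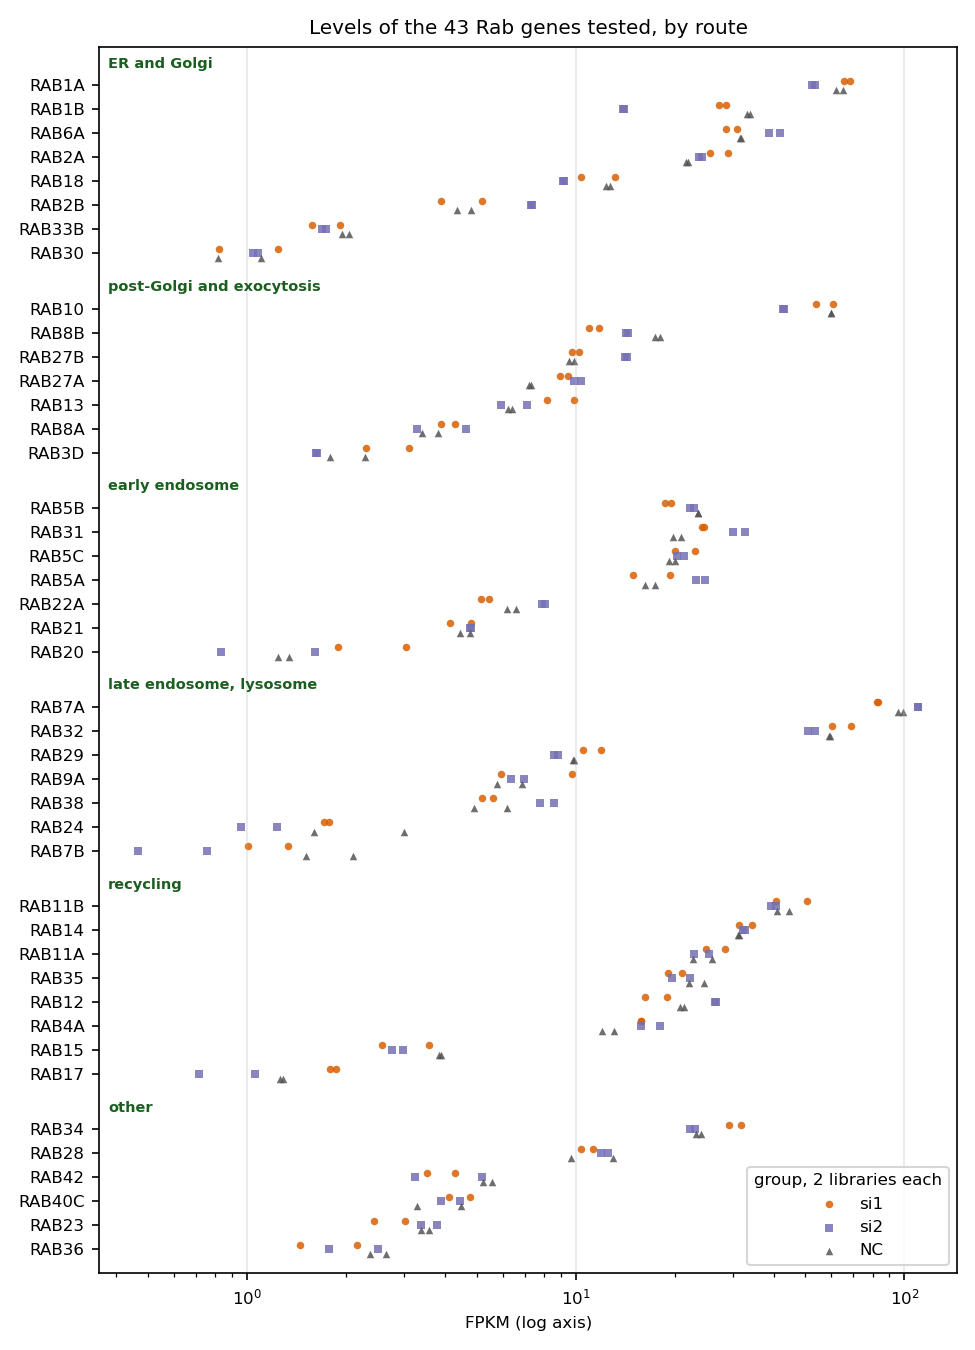
FPKM (log axis) of the 43 Rab genes tested, grouped by trafficking route and ordered by NC mean within a route. Orange circles are the 2 si1 libraries, violet squares the 2 si2 libraries and grey triangles the 2 NC libraries; RAB7A is the highest, at 82.7 to 110 FPKM, and RAB1B in si2 lies well left of its other libraries.

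Against NC, 10 of the 43 tested members passed an adjusted p of 0.05 in si1 (limma, Benjamini-Hochberg over 12319 genes) and 17 in si2. In si1, 6 rose (RAB13, RAB34, RAB4A, RAB2A, RAB27A, RAB31) and 4 fell (RAB8B, RAB5B, RAB1B, RAB7A). In si2, 11 rose (RAB31, RAB2B, RAB27B, RAB38, RAB5A, RAB27A, RAB4A, RAB6A, RAB12, RAB22A, RAB7A) and 6 fell (RAB1B, RAB7B, RAB10, RAB18, RAB8B, RAB1A). The Rab shares were 23.3% in si1 and 39.5% in si2, where 22.4% and 29% of all genes tested passed. By direction, 9.47% of all genes passed as higher and 12.9% as lower in si1, with 13.6% higher and 15.4% lower in si2. The si1 share is thus near its background. When the filter was raised to 5 FPKM, 11 of 29 members passed in si1 and 16 of 29 in si2, against backgrounds of 33% and 41.4%. The median Rab log2 fold change was 0.01 in si1 and 0.03 in si2, beside -0.01 and 0.00 for all genes. Log2 fold changes here are on log2(FPKM + 1), which understates changes of low genes.

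With si1 and si2 combined against NC, 8 of 43 members passed (18.6%, against 20.5% of all genes, 8.73% higher and 11.8% lower), and 9 of 29 at a mean of 5 FPKM (31.4% of all genes). RAB31, RAB27A, RAB4A and RAB27B rose, and RAB1B, RAB7B, RAB8B and RAB10 fell. RAB10 and RAB27B were called here with si1 libraries that overlapped NC. With the 4 knockdown libraries fitted as 1 group, 0 of these 8 stayed called by limma, and 5 of the 43 members had an unadjusted p under 0.05. Of all 12319 genes in that limma fit, 84 were called and 1754 had an unadjusted p under 0.05. The si1 and si2 comparisons share the NC libraries, so their calls are not independent, and each comparison's values are given side by side.

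The calls leaned on both NC libraries. Calls over all genes tested also fell when either NC library was left out, but in si1 the Rab calls lost a larger part than calls over all genes. Without NC replicate 1 or without NC replicate 2, RAB8B alone stayed called of the 10 in si1. In si2, RAB1B, RAB7B, RAB10, RAB27A, RAB27B, RAB2B and RAB31 stayed called without NC replicate 1 (7 of 17), and RAB1B, RAB10, RAB4A, RAB38, RAB27B and RAB31 without NC replicate 2 (6 of 17). RAB1B, RAB7B, RAB10, RAB6A, RAB4A, RAB27A, RAB27B and RAB31 stayed without si2 replicate 1 (8 of 17), and RAB1B, RAB10, RAB27A, RAB38, RAB27B and RAB31 without si2 replicate 2 (6 of 17). For si1, 7 of 10 calls stayed without si1 replicate 1 (RAB31, RAB27A and RAB4A were lost) and 5 of 10 without si1 replicate 2 (RAB1B, RAB31, RAB2A, RAB4A and RAB13 were lost). Leaving out an si2 library, which enters the shared spread, kept 6 of 10 si1 calls. For the 2 groups together, RAB1B and RAB31 stayed without NC replicate 1 and RAB1B and RAB8B without NC replicate 2 (2 of 8 each). Called in every alternative run were RAB8B in si1, and RAB1B, RAB10, RAB27B and RAB31 in si2.

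**Figure D2:**
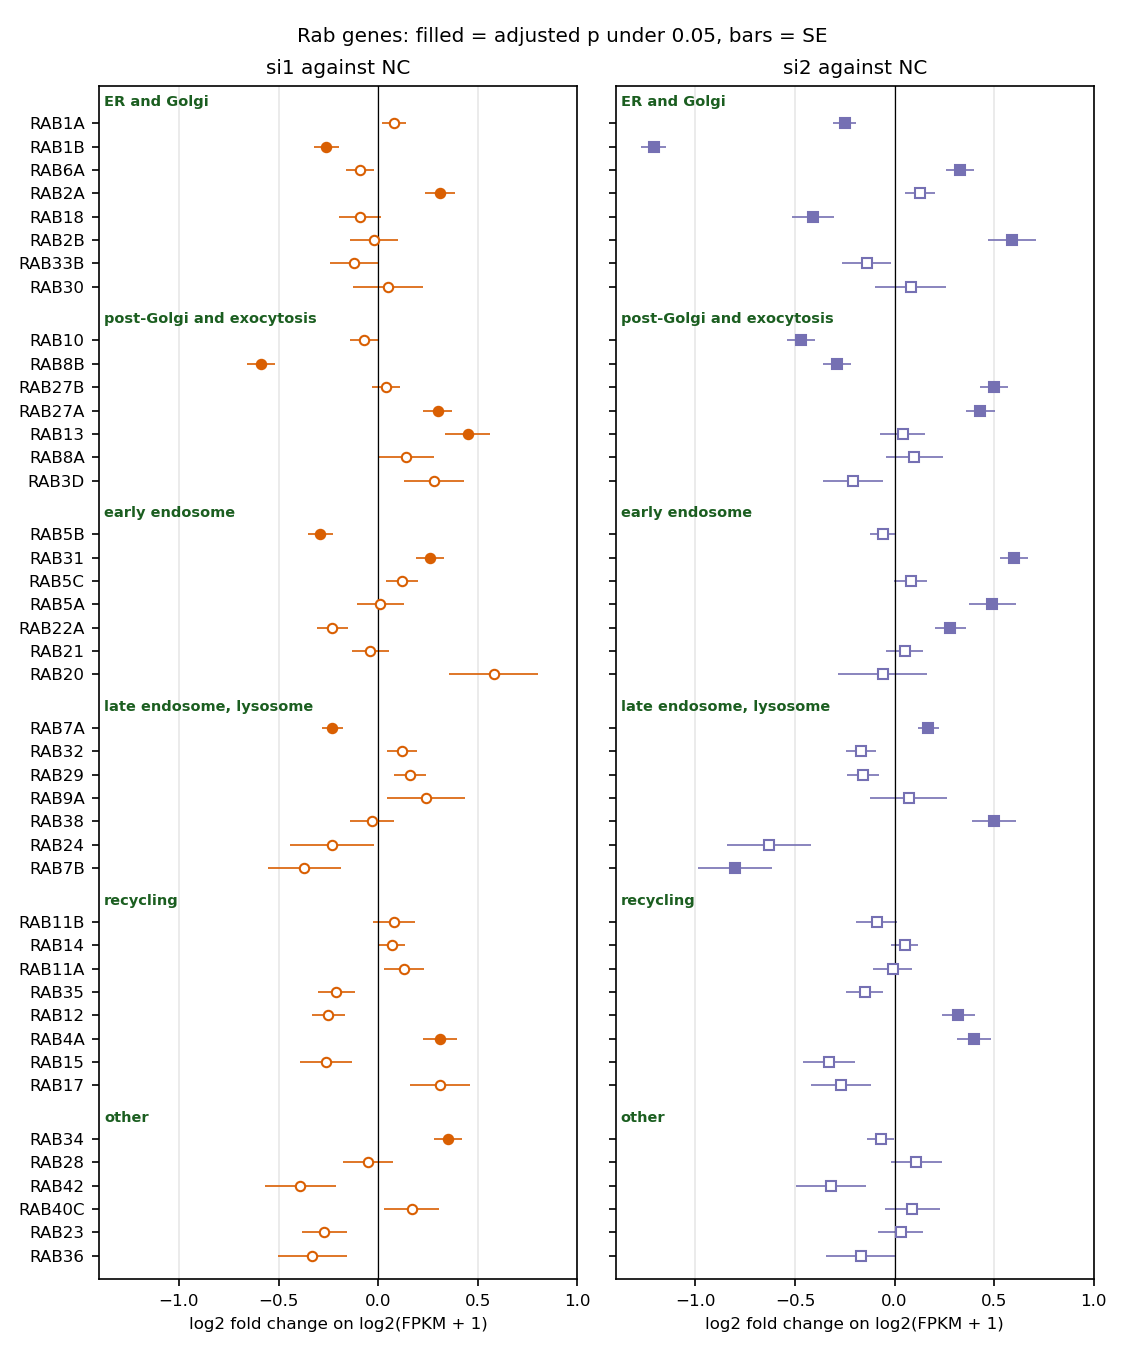
Log2 fold change on log2(FPKM + 1) with limma's SE (bars) for the 43 Rab genes tested, si1 against NC on the left and si2 against NC on the right, by route. Filled symbols passed an adjusted p of 0.05 and open symbols did not; RAB1B is the lowest point in si2, at -1.21.

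On the route between the endoplasmic reticulum and the Golgi, RAB1B was the member with the largest fall. RAB1B (chr11:66268533-66277492, plus strand, hg38), which with RAB1A tethers vesicles to the Golgi, was at 28.6 and 27.3 FPKM in the si1 libraries, 14 and 13.9 FPKM in the si2 libraries and 33.9 and 33.3 FPKM in the NC libraries. The libraries of the 3 groups did not overlap, with si2 lowest, si1 between and NC highest. Its log2 fold change was -1.21 ± 0.0622 (adjusted p = 0.000107) in si2, 2.31-fold lower on that scale, and -0.26 ± 0.0622 (adjusted p = 0.0262) in si1. The si2 call held under 13 of 13 alternatives (adjusted p 3.49e-09 to 0.00338) and the si1 call under 6 of 13 alternatives (adjusted p 0.0182 to 0.156). In bulk RNA, fewer expressing cells and less RNA per cell cannot be told apart.

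RAB1A (chr2:65070696-65130331, minus strand), its closest relative, was at 65.4 and 68.5 FPKM in the si1 libraries, 52.5 and 53.4 FPKM in the si2 libraries and 64.9 and 61.8 FPKM in the NC libraries. Its si2 libraries were the lowest and its si1 libraries the highest, without overlap with NC. It fell in si2, with a log2 fold change of -0.25 ± 0.0587 (adjusted p = 0.0191), and gave 0.08 ± 0.0587 (adjusted p = 0.385) in si1. The 2 genes encode 93.5% identical proteins but share 76.5% of aligned coding bases, with a longest identical run of 16 bases. The spliced coding stretch around the GTP-binding loop shows where reads can tell the paralogs apart; letters that differ between the 2 genes of a pair are in capitals, 11 between the RAB1 genes and 6 between RAB8A and RAB8B. Sequences are from GENCODE release 29 transcripts (hg38), each from 5′ to 3′ along its own strand, and the RAB1 stretches span exon junctions.
RAB1A, coding bases 43 to 102, chr2:65098061-65104787, minus strand: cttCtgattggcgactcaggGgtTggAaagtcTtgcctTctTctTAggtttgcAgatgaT
RAB1B, coding bases 34 to 93, chr11:66271816-66272162, plus strand: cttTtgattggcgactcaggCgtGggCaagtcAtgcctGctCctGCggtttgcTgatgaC
RAB8A, coding bases 34 to 93, chr19:16111935-16111994, plus strand: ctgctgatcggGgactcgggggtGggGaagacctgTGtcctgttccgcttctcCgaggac
RAB8B, coding bases 34 to 93, chr15:63189658-63189717, plus strand: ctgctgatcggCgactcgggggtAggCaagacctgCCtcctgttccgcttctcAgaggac

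Other Golgi members moved in different directions. RAB6A, which directs transport from the Golgi back to the endoplasmic reticulum and out to the cell surface, was at 28.6 and 31 FPKM in the si1 libraries, 38.7 and 41.8 FPKM in the si2 libraries and 31.6 and 31.8 FPKM in the NC libraries. Its si2 libraries were all above NC and its si1 libraries all below; it rose in si2, with a log2 fold change of 0.33 ± 0.0703 (adjusted p = 0.0138), and gave -0.09 ± 0.0703 (adjusted p = 0.408) in si1. RAB2B, a Golgi Rab, was at 3.9 and 5.17 FPKM in the si1 libraries, 7.38 and 7.33 FPKM in the si2 libraries and 4.79 and 4.35 FPKM in the NC libraries, with si2 alone standing apart. It rose in si2, with a log2 fold change of 0.59 ± 0.12 (adjusted p = 0.0125), and gave -0.02 ± 0.12 (adjusted p = 0.932) in si1. Its paralog RAB2A was at 25.7 and 29.1 FPKM in the si1 libraries, 23.8 and 24.2 FPKM in the si2 libraries and 21.7 and 22 FPKM in the NC libraries. RAB2A rose in si1, with a log2 fold change of 0.31 ± 0.0755 (adjusted p = 0.026), and gave 0.13 ± 0.0755 (adjusted p = 0.226) in si2, all knockdown libraries lying above NC.

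RAB18, linked to lipid droplets and the endoplasmic reticulum, was at 10.4 and 13.2 FPKM in the si1 libraries, 9.2 and 9.17 FPKM in the si2 libraries and 12.7 and 12.4 FPKM in the NC libraries. It fell in si2, with a log2 fold change of -0.41 ± 0.106 (adjusted p = 0.0273), and its si1 libraries spanned NC. RAB33B and RAB30, Golgi Rabs at 0.818 to 2.05 FPKM, passed in no contrast. Of the 8 tested members of this route, in si1 1 rose and 1 fell, while in si2 2 rose and 3 fell. Their summed FPKM, with the 6 members below the filter included, was 168 and 179 in si1, 150 and 155 in si2 and 174 and 170 in NC. The si2 libraries were the lowest of the 6 in that sum.

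Among the post-Golgi and exocytic members, RAB8B fell in both groups. RAB8B (chr15:63189469-63267782, plus strand), which brings Golgi-derived carriers to the plasma membrane and cilium, was at 11 and 11.8 FPKM in the si1 libraries, 14.4 and 14.2 FPKM in the si2 libraries and 18 and 17.4 FPKM in the NC libraries. The groups did not overlap, and si1 was the lowest. The log2 fold change was -0.59 ± 0.0699 (adjusted p = 0.00173) in si1 and -0.29 ± 0.0699 (adjusted p = 0.0215) in si2. The si1 call held under 13 of 13 alternatives (adjusted p 8.04e-06 to 0.0239) and the si2 call under 9 of 13 alternatives (adjusted p 0.00603 to 0.124). RAB8A was at 4.29 and 3.89 FPKM in the si1 libraries, 4.65 and 3.3 FPKM in the si2 libraries and 3.82 and 3.4 FPKM in the NC libraries and passed in no contrast.

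RAB10, an exocytic Rab known from glucose transporter delivery in fat cells, was at 53.7 and 60.5 FPKM in the si1 libraries, 43.1 and 42.7 FPKM in the si2 libraries and 59.9 and 59.7 FPKM in the NC libraries. Both si2 libraries lay under all others, and the si1 libraries spanned NC. It fell in si2, with a log2 fold change of -0.47 ± 0.07 (adjusted p = 0.00383), and gave -0.07 ± 0.07 (adjusted p = 0.528) in si1. RAB13, known for its place at epithelial tight junctions, was at 8.2 and 9.86 FPKM in the si1 libraries, 7.13 and 5.94 FPKM in the si2 libraries and 6.22 and 6.4 FPKM in the NC libraries. It rose in si1, with a log2 fold change of 0.45 ± 0.113 (adjusted p = 0.0293), and its si2 libraries lay on both sides of NC. RAB3D, a Rab of secretory granules, was at 3.1 and 2.3 FPKM in the si1 libraries, 1.63 and 1.62 FPKM in the si2 libraries and 1.79 and 2.29 FPKM in the NC libraries and passed against NC in neither group.

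The RAB27 pair, which docks secretory granules, melanosomes and exosome-bearing endosomes at the plasma membrane, includes a member that rose in both groups, RAB27A, and one that rose in si2, RAB27B. RAB27A (chr15:55202966-55319113, minus strand) was at 9.49 and 8.97 FPKM in the si1 libraries, 9.91 and 10.4 FPKM in the si2 libraries and 7.33 and 7.23 FPKM in the NC libraries. All 4 knockdown libraries lay above both NC libraries. It rose in si1, with a log2 fold change of 0.30 ± 0.0729 (adjusted p = 0.0255), and in si2, at 0.43 ± 0.0729 (adjusted p = 0.00625). RAB27B was at 9.76 and 10.2 FPKM in the si1 libraries, 14.1 and 14.3 FPKM in the si2 libraries and 9.88 and 9.55 FPKM in the NC libraries. It rose in si2, with a log2 fold change of 0.50 ± 0.0689 (adjusted p = 0.00283), and gave 0.04 ± 0.0689 (adjusted p = 0.729) in si1, whose libraries overlapped NC. The RAB27B call in si2 held under 13 of 13 alternatives (adjusted p 2.36e-05 to 0.0311), and the RAB27A calls under 8 of 13 alternatives (adjusted p 0.00912 to 0.128) in si1 and 12 of 13 alternatives (adjusted p 0.000644 to 0.0501) in si2. Of the 7 tested post-Golgi members, 2 were called higher and 1 lower in si1, and 2 higher and 2 lower in si2. Summed over the route, FPKM was 102 and 110 in si1, 96.5 and 94.6 in si2 and 109 and 108 in NC, with si2 lowest.

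**Figure D3:**
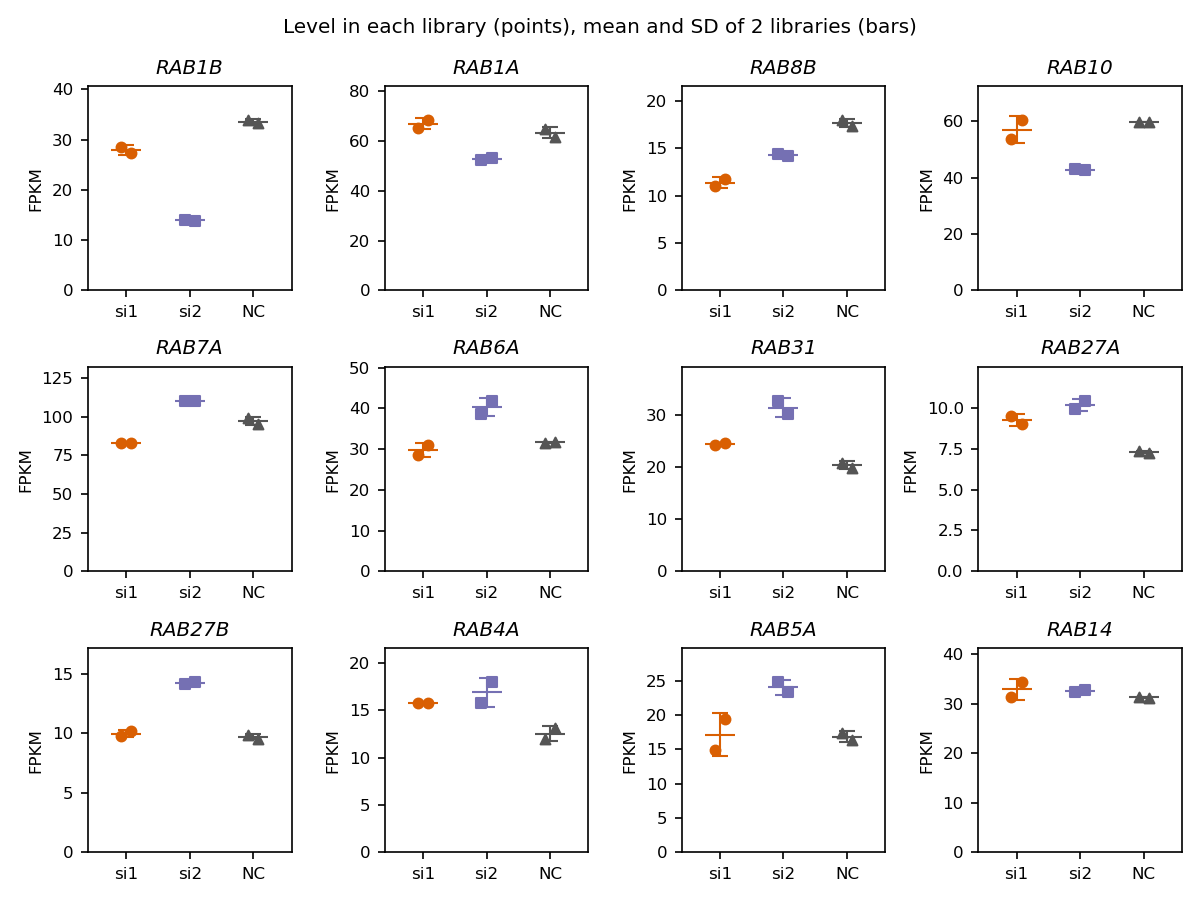
FPKM of 12 Rab genes in each library (points), with the mean and SD of the 2 libraries of a group (bars), for si1, si2 and NC; all axes start at 0. RAB1B is at 27.3 to 28.6 FPKM in si1, 13.9 to 14 in si2 and 33.3 to 33.9 in NC, while RAB14 stays between 31.2 and 34.4 FPKM.

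Among the early endosomal members, 3 rose in si2 and RAB31 alone rose in si1. RAB31 (chr18:9708165-9862551, plus strand), which carries cargo between the trans-Golgi network and endosomes, was at 24.3 and 24.6 FPKM in the si1 libraries, 32.7 and 30.2 FPKM in the si2 libraries and 20.9 and 19.8 FPKM in the NC libraries. The groups did not overlap, with si2 highest and NC lowest. It rose in si1, with a log2 fold change of 0.26 ± 0.0693 (adjusted p = 0.039), and in si2, at 0.60 ± 0.0693 (adjusted p = 0.00142), 1.52-fold on that scale. The si2 call held under 13 of 13 alternatives (adjusted p 1.32e-06 to 0.0197) and the si1 call under 4 of 13 alternatives (adjusted p 0.00875 to 0.202). RAB22A, its subfamily relative, was at 5.14 and 5.43 FPKM in the si1 libraries, 7.9 and 8.06 FPKM in the si2 libraries and 6.18 and 6.59 FPKM in the NC libraries. Its si2 libraries lay above NC and its si1 libraries below; it rose in si2, with a log2 fold change of 0.28 ± 0.0768 (adjusted p = 0.0321), and gave -0.23 ± 0.0768 (adjusted p = 0.073) in si1.

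The 3 RAB5 genes encode the Rab that defines early endosomes, and they moved differently. RAB5A was at 14.9 and 19.4 FPKM in the si1 libraries, 24.8 and 23.3 FPKM in the si2 libraries and 17.4 and 16.3 FPKM in the NC libraries, and rose in si2, with a log2 fold change of 0.49 ± 0.118 (adjusted p = 0.022). RAB5B was at 19.5 and 18.7 FPKM in the si1 libraries, 22.2 and 22.9 FPKM in the si2 libraries and 23.6 and 23.6 FPKM in the NC libraries, and fell in si1, with a log2 fold change of -0.29 ± 0.0626 (adjusted p = 0.0172). RAB5C, at 19.2 to 23 FPKM, passed in no contrast. RAB21, an integrin-trafficking Rab at 4.15 to 4.8 FPKM, and RAB20, at 0.834 to 3.04 FPKM, passed in none either. Of these 7 members, RAB5B alone fell in si1 and 0 fell in si2. Summed over the route, FPKM was 90 and 99.1 in si1, 114 and 112 in si2 and 93.1 and 92.5 in NC, so si2 was highest and si1 overlapped NC.

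RAB7A, the most abundant member, moved in opposite directions in the 2 knockdown groups. RAB7A (chr3:128726122-128814796, plus strand), which drives late endosome and autophagosome fusion with lysosomes, was at 83.2 and 82.7 FPKM in the si1 libraries, 110 and 110 FPKM in the si2 libraries and 99.2 and 95.5 FPKM in the NC libraries. No group overlapped another, with si1 lowest and si2 highest. It fell in si1, with a log2 fold change of -0.23 ± 0.0519 (adjusted p = 0.0215), and rose in si2, with a log2 fold change of 0.17 ± 0.0519 (adjusted p = 0.0438). The si1 call held under 8 of 13 alternatives (adjusted p 0.0146 to 0.158) and the si2 call under 7 of 13 alternatives (adjusted p 0.0238 to 0.243). RAB7B, a low-level relative that returns cargo from late endosomes to the Golgi, was at 1.33 and 1.01 FPKM in the si1 libraries, 0.756 and 0.467 FPKM in the si2 libraries and 1.51 and 2.1 FPKM in the NC libraries. It fell in si2, with a log2 fold change of -0.80 ± 0.185 (adjusted p = 0.0191), and gave -0.37 ± 0.185 (adjusted p = 0.202) in si1, on 26 to 136 reads per library.

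RAB38, which with RAB32 builds melanosomes and other lysosome-related organelles, was at 5.59 and 5.2 FPKM in the si1 libraries, 8.6 and 7.81 FPKM in the si2 libraries and 4.9 and 6.18 FPKM in the NC libraries, and rose in si2, with a log2 fold change of 0.50 ± 0.112 (adjusted p = 0.0169). RAB32, at 60.1 and 68.9 FPKM in the si1 libraries, 50.9 and 53.4 FPKM in the si2 libraries and 59.2 and 58.8 FPKM in the NC libraries, passed against NC in neither group. RAB29, which recruits the kinase LRRK2 to Golgi and lysosomal membranes, spanned 8.6 to 11.9 FPKM and passed against NC in neither group. RAB9A, a Rab of the path from late endosomes to the Golgi, was at 5.92 and 9.71 FPKM in si1, 6.96 and 6.34 FPKM in si2 and 5.76 and 6.86 FPKM in NC. Its si1 libraries differed more from each other than any 2 groups did in their means, and it passed in no contrast. RAB24, an autophagy-linked Rab at 0.961 to 3.01 FPKM, passed in none. Of the 7 tested late endosomal members, 1 was called lower in si1, and 2 higher and 1 lower in si2. Summed over the route, FPKM was 168 and 181 in si1, 187 and 188 in si2 and 184 and 181 in NC.

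On the recycling route, RAB4A stood above NC in every knockdown library. RAB4A (chr1:229271062-229305894, plus strand), which returns cargo quickly from early endosomes to the surface, was at 15.8 and 15.8 FPKM in the si1 libraries, 15.8 and 18 FPKM in the si2 libraries and 12 and 13.1 FPKM in the NC libraries. It rose in si1, with a log2 fold change of 0.31 ± 0.0844 (adjusted p = 0.0375), and in si2, at 0.40 ± 0.0844 (adjusted p = 0.0133). Those calls held under 8 of 13 alternatives (adjusted p 0.0127 to 0.205) and 10 of 13 alternatives (adjusted p 0.00253 to 0.0894). RAB12, which acts between recycling endosomes and lysosomes, was at 16.3 and 19 FPKM in the si1 libraries, 26.7 and 26.5 FPKM in the si2 libraries and 20.7 and 21.4 FPKM in the NC libraries. It rose in si2, with a log2 fold change of 0.32 ± 0.0832 (adjusted p = 0.027), and lay below NC in both si1 libraries, at -0.25 ± 0.0832 (adjusted p = 0.0729).

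The core recycling Rabs RAB11A and RAB11B did not pass in any contrast, at 22.7 to 28.4 FPKM and 39.3 to 50.5 FPKM. RAB14, which links the Golgi and endosomes, had the narrowest spread of the tested members, with its highest library 1.1 times its lowest. RAB35, a Rab of fast recycling and cytokinesis, was at 19.1 to 24.5 FPKM and RAB15 at 2.58 to 3.89 FPKM, and neither passed. RAB17, an epithelial Rab, was at 1.79 and 1.87 FPKM in the si1 libraries, 0.715 and 1.06 FPKM in the si2 libraries and 1.29 and 1.26 FPKM in the NC libraries, with si1 above and si2 below NC, and passed against NC in neither group (0.31 ± 0.15 (adjusted p = 0.183) in si1 and -0.27 ± 0.15 (adjusted p = 0.215) in si2). Of the 8 tested members, 1 rose in si1 and 2 in si2, and none fell at the threshold in either; at an unadjusted p under 0.05, 2 passed in si1 and 3 in si2, where RAB12 in si1 and RAB15 in si2 were lower.

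Of the 6 tested members with no single route assigned, RAB34 alone passed against NC. RAB34, a Rab of primary cilia and lysosome positioning, was at 29.3 and 31.9 FPKM in the si1 libraries, 23 and 22.2 FPKM in the si2 libraries and 23.3 and 24.1 FPKM in the NC libraries, and rose in si1, with a log2 fold change of 0.35 ± 0.0691 (adjusted p = 0.0125). Its si2 libraries lay under NC, at -0.07 ± 0.0691 (adjusted p = 0.506). RAB23, a brake on Hedgehog signalling, RAB28, RAB36, RAB40C (a Rab with a ubiquitin ligase adaptor box) and RAB42 were at 1.45 to 13 FPKM. None of these 5 passed in any contrast.

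The balance within paralog pairs is a ratio inside each library, so it does not depend on depth. Of the RAB1A and RAB1B sum, RAB1B made up 30.5% and 28.5% in the si1 libraries, 21% and 20.7% in the si2 libraries and 34.3% and 35% in the NC libraries. That sum was 94 and 95.8 FPKM in si1, 66.5 and 67.4 FPKM in si2 and 98.8 and 95.1 FPKM in NC. The pair's total was thus lowest in si2, and the RAB1B share was lowest there too. Of the RAB2 sum, RAB2B made up 13.2% and 15.1% in the si1 libraries, 23.6% and 23.2% in the si2 libraries and 18.1% and 16.5% in the NC libraries. Of the RAB8 sum, RAB8A made up 28.1% and 24.8% in the si1 libraries, 24.4% and 18.9% in the si2 libraries and 17.5% and 16.4% in the NC libraries, with every knockdown library above NC. Of RAB32 plus RAB38, RAB38 made up 8.51% and 7.02% in the si1 libraries, 14.5% and 12.8% in the si2 libraries and 7.65% and 9.52% in the NC libraries. Of the RAB9 sum, RAB9B took 1.63% and 1.91% in the si1 libraries, 2.83% and 1.91% in the si2 libraries and 6.23% and 7.01% in the NC libraries. RAB11A took 33.1% to 41.2% of the RAB11 sum over the 6 libraries, with the groups overlapping. These shares are descriptions and carry no test.

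**Figure D4:**
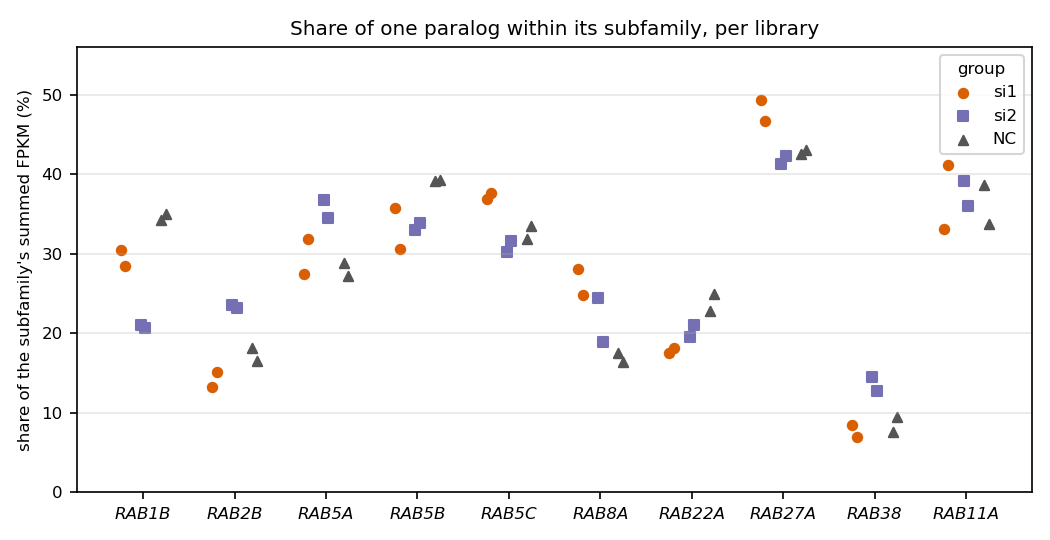
Share (%) of 1 paralog in its subfamily's summed FPKM, each point 1 library, for si1, si2 and NC from left to right within a gene. RAB1B is at 28.5% to 30.5% in si1, 20.7% to 21% in si2 and 34.3% to 35% in NC, RAB2B is highest in si2, and RAB11A overlaps between groups.

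Directly compared, si2 and si1 differed in 20 of 43 members (46.5%; 38.5% of all genes passed, 19.9% higher and 18.6% lower). At a mean of 5 FPKM, 19 of 29 members passed, against 52.6% of all genes. RAB2B, RAB12, RAB38, RAB22A, RAB5A, RAB27B, RAB6A, RAB7A, RAB31, RAB8B and RAB5B were higher in si2, and RAB1B, RAB17, RAB3D, RAB34, RAB13, RAB10, RAB1A, RAB29 and RAB32 lower. Among the members called, RAB1B showed the largest difference, -0.95 ± 0.0622 (adjusted p = 0.000106), followed by RAB2B, at 0.60 ± 0.12 (adjusted p = 0.00771), RAB17, at -0.59 ± 0.15 (adjusted p = 0.0205), and RAB12, at 0.57 ± 0.0832 (adjusted p = 0.00215). RAB7A differed by 0.40 ± 0.0519 (adjusted p = 0.00136). Called in every alternative run were 10 of these 20. Without si2 replicate 1, 11 stayed called, and without si2 replicate 2, 13. Lost in the first case were RAB17, RAB3D, RAB29, RAB32, RAB5B, RAB8B, RAB31, RAB5A and RAB38, and in the second RAB3D, RAB13, RAB29, RAB32, RAB5B, RAB8B and RAB5A. Without si1 replicate 1, RAB17 and RAB3D were lost, and without si1 replicate 2, RAB17, RAB13, RAB29 and RAB5B. In 10 of the 43 members (23.3%) the difference passed and the si2 and si1 libraries lay on opposite sides of both NC libraries, against 16.3% of all genes. RAB4A and RAB27A, higher in both groups, gave 0.09 ± 0.0844 (adjusted p = 0.441) and 0.13 ± 0.0729 (adjusted p = 0.212) between them.

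Whether reads counted for a Rab could come from another gene was read from the annotation, since the sources used here do not give the strand setting of the counting. Of the 61 members, 44 had under 10% of their exonic bases under exons of another gene, and 17 had more. RAB1B shares 42.6% of its exonic bases with opposite-strand transcripts AP001107.1 and AP001107.2, listed at 0 to 0.129 FPKM and at 0. RAB1A shares 22.9% with CEP68 (2.87 to 3.69 FPKM), which passed in neither group. RAB4A shares 19.6% with SPHAR, at 0 in every library. RAB8B, RAB7A, RAB10 and RAB31 overlap no other exons, and RAB6A shares 8.68% with the opposite-strand AP002770.1. RAB23 shares 57.7% with BAG2 (8.76 to 12.3 FPKM), RAB24 shares 44.8% with MXD3, and RAB3D shares 23.8% with CCDC159 and AC011472.3. RAB13 shares 24.8% with AL358472.6 (0 to 0.0702 FPKM), RAB8A 37.8% with AC008894.2 (0 to 0.122 FPKM) and RAB5C 28.8% with AC099811.2 (0 FPKM). The values of these members, and of RAB1B, RAB1A and RAB4A, are uncertain to that extent. CCDC159 rose in both groups, by 0.92 (adjusted p = 0.00489) in si1 and 0.52 (adjusted p = 0.0321) in si2. RAB6A and RAB6C share 96.3% of coding bases, with an identical run of 121 bases, so reads of these 2 genes cannot always be told apart; RAB6C held 6 reads in all.

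The members' proteins share the features that the naming rule did not use. Of 61 coding sequences, 56 encode the GTP-binding loop pattern GxxxxGK followed by S or T, and 58 end in a cysteine pattern of the kind that Rab prenylation uses. Those ends are CXC in 18 members, CC in 15, a cysteine pair followed by 1 to 3 residues in 15, and a single cysteine 3 residues before the end in 10. RAB41, RAB6C and RAB6D have none of these. Encoded lengths ran from 194 to 1021 residues.

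Promoters of a member that rose in both groups and of the member that fell most are shown for comparison, each 300 bases from 250 before to 50 after the RefSeq start (RefSeq, GRCh38.p14). RefSeq promoters matched 49 of 61 members, 70 promoters in all. The E-box letters CACGTG, searched on both strands, are in capitals.
RAB31 promoter, chr18:9708051-9708350, plus strand: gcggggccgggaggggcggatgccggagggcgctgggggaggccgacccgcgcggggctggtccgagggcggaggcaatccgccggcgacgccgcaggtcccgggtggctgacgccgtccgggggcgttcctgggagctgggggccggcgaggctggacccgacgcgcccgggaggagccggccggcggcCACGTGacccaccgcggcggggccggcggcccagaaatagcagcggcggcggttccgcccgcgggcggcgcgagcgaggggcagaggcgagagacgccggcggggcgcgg
RAB1B promoter, chr11:66268389-66268688, plus strand: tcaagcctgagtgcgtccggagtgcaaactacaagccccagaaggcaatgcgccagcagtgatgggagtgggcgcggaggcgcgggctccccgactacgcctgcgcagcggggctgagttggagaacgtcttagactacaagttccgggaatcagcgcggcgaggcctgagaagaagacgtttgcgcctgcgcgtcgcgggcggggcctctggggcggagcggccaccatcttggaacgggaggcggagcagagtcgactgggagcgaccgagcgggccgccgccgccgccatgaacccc
The RAB31 window holds 1 E-box, 60 bases before the start, and the RAB1B window holds none. The E-box letters occur in 8.57% of Rab promoters and 7.26% of all 35116 promoters. Rab genes with them were RAB21, RAB24, RAB29, RAB31, RAB4A and RAB5A, of which RAB31 and RAB4A rose in both groups and RAB5A in si2, while RAB21, RAB24 and RAB29 passed against NC in neither group. RAB27A, which also rose in both groups, had the letters in none of its promoters. The 2 promoters shown were chosen after the motif search. The AP-1 letters TGACTCA, searched on both strands, occur in 8.57% of Rab promoters and 4.95% of all. GC boxes (GGGCGG, both strands) occur in 72.9% of Rab promoters and 45% of all; the RAB31 window holds 4 and the RAB1B window 2. None of the 3 motifs contains another. A match is only a run of letters.

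The genes that load, unload, modify and read Rabs were taken from lists chosen with earlier results known. Of 116 listed genes 100 were tested. In si1, 12 rose and 12 fell (24%, against 22.4% of all genes). In si2, 16 rose and 21 fell (37%, against 29%). With both together, 13 rose and 17 fell (30%, against 20.5%), and in si2 against si1, 16 were higher and 22 lower (38%, against 38.5%). Their median log2 fold changes were 0.00 in si1, -0.06 in si2 and -0.02 together, beside -0.01, 0.00 and -0.01 for all genes. Fewer of these genes passed in si1 and in si2 when either NC library was left out, and fewer in si2 without si2 replicate 1. Calls over all genes tested fell in those runs too.

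Among genes of the membrane cycle, CHML, an escort protein that presents new Rabs for prenylation, was at 6.01 and 7.51 in si1, 8.06 and 8.4 in si2 and 10.4 and 9.2 in NC (FPKM), and fell in si1, with a log2 fold change of -0.48 ± 0.111 (adjusted p = 0.0222), a call that held under 9 of 13 alternatives (adjusted p 0.000455 to 0.14). RABIF, a Rab chaperone with weak exchange activity, fell in si2, with a log2 fold change of -0.38 ± 0.109 (adjusted p = 0.0376), held under 9 of 13 alternatives (adjusted p 0.0238 to 0.186).

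Among 27 exchange factors tested, in si1 3 rose and 2 fell, while in si2 4 rose and 7 fell. DENND5A, a DENN-domain exchange factor that binds RAB6, was at 12.4 and 11.3 FPKM in the si1 libraries, 13.2 and 12.6 FPKM in the si2 libraries and 7.76 and 7.77 FPKM in the NC libraries. All knockdown libraries lay above NC, and it rose in si1, with a log2 fold change of 0.55 ± 0.0756 (adjusted p = 0.00312), and in si2, at 0.67 ± 0.0756 (adjusted p = 0.00137). RIN2, an exchange factor of RAB5, also rose in both groups, with a log2 fold change of 0.42 ± 0.0792 (adjusted p = 0.0105) in si1 and 0.73 ± 0.0792 (adjusted p = 0.0012) in si2. HPS1, part of the exchange factor of RAB32 and RAB38, was at 11.1 and 10.9 in si1, 6.59 and 7.15 in si2 and 12.8 and 12.6 in NC (FPKM), and fell in si2, with a log2 fold change of -0.80 ± 0.0724 (adjusted p = 0.000606). MON1B, part of a RAB7 exchange factor, fell in si2, with a log2 fold change of -0.43 ± 0.0814 (adjusted p = 0.00939), the group in which RAB7A rose. RGP1, part of a RAB6 exchange factor, fell in si2, with a log2 fold change of -0.66 ± 0.0899 (adjusted p = 0.00266), where RAB6A rose. The other parts of the factors that hold HPS1, MON1B and RGP1 are not described here and need not move alike. Any link between these changes and the Rab levels was not tested.

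Among 29 GTPase-activating proteins tested, in si1 3 rose and 3 fell, while in si2 4 rose and 5 fell. TBC1D13, a RAB35 GTPase-activating protein, showed the largest change against NC of the machinery. It was at 12.7 and 13.9 FPKM in the si1 libraries, 3.88 and 3.84 FPKM in the si2 libraries and 14.6 and 16.1 FPKM in the NC libraries, so si2 stood apart from the other 4 libraries. It fell in si2, with a log2 fold change of -1.75 ± 0.0815 (adjusted p = 8.3e-05), and gave -0.19 ± 0.0815 (adjusted p = 0.138) in si1. TBC1D4, which acts on RAB10 in insulin-responsive cells, rose in si2, with a log2 fold change of 0.84 ± 0.0714 (adjusted p = 0.000485). TBC1D9 rose in both groups, with a log2 fold change of 0.87 ± 0.0827 (adjusted p = 0.000802) in si1 and 0.50 ± 0.0827 (adjusted p = 0.00546) in si2. TBC1D8 was at 4.73 and 3.86 in si1, 12.3 and 13.2 in si2 and 6.93 and 8.42 in NC (FPKM); it fell in si1, with a log2 fold change of -0.71 ± 0.117 (adjusted p = 0.00639), and rose in si2, with a log2 fold change of 0.67 ± 0.117 (adjusted p = 0.00711).

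Among 35 effectors tested, in si1 6 rose and 5 fell, while in si2 7 rose and 8 fell. BICD2, an adaptor that links RAB6 vesicles to dynein, was at 10.6 and 10.3 FPKM in the si1 libraries, 11.9 and 11.5 FPKM in the si2 libraries and 4.68 and 4.23 FPKM in the NC libraries. Both knockdown groups lay above NC by more than their spread, at 1.07 ± 0.077 (adjusted p = 0.000309) in si1 and 1.22 ± 0.077 (adjusted p = 0.000185) in si2, and it rose in both. MICALL1, a recycling endosome adaptor that binds RAB8 and RAB35, was at 4.92 and 4.56 FPKM in the si1 libraries, 6.35 and 6.32 FPKM in the si2 libraries and 12.1 and 11.3 FPKM in the NC libraries, and fell in si1, with a log2 fold change of -1.15 ± 0.078 (adjusted p = 0.000246), and in si2, at -0.79 ± 0.078 (adjusted p = 0.000827). RAB11FIP5, a RAB11 effector, was at 13.6 and 12.2 in si1, 7 and 6.4 in si2 and 13.5 and 15.2 in NC (FPKM), and fell in si2, with a log2 fold change of -0.99 ± 0.0924 (adjusted p = 0.000656). RAB11FIP1 fell in si2, with a log2 fold change of -0.82 ± 0.156 (adjusted p = 0.00943), and RAB11FIP2 rose, with a log2 fold change of 0.32 ± 0.0921 (adjusted p = 0.0398). The RAB11FIP2 call held under 6 of 12 alternatives (adjusted p 0.0155 to 0.172), and was lost without any single si2 or NC library. The RAB11 genes themselves did not pass. EEA1, the tether that RAB5 recruits to early endosomes, rose in si2, with a log2 fold change of 0.31 ± 0.0763 (adjusted p = 0.0222). GOLGA2, a Golgi tether that binds RAB1, rose in si1, with a log2 fold change of 0.53 ± 0.0869 (adjusted p = 0.00632). Of the Rab kinases and phosphatase, 1 of 3 was tested and 0 passed in any contrast by limma; at an unadjusted p under 0.05, 1 passed in si1 and 0 in the other contrasts.

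**Figure D5:**
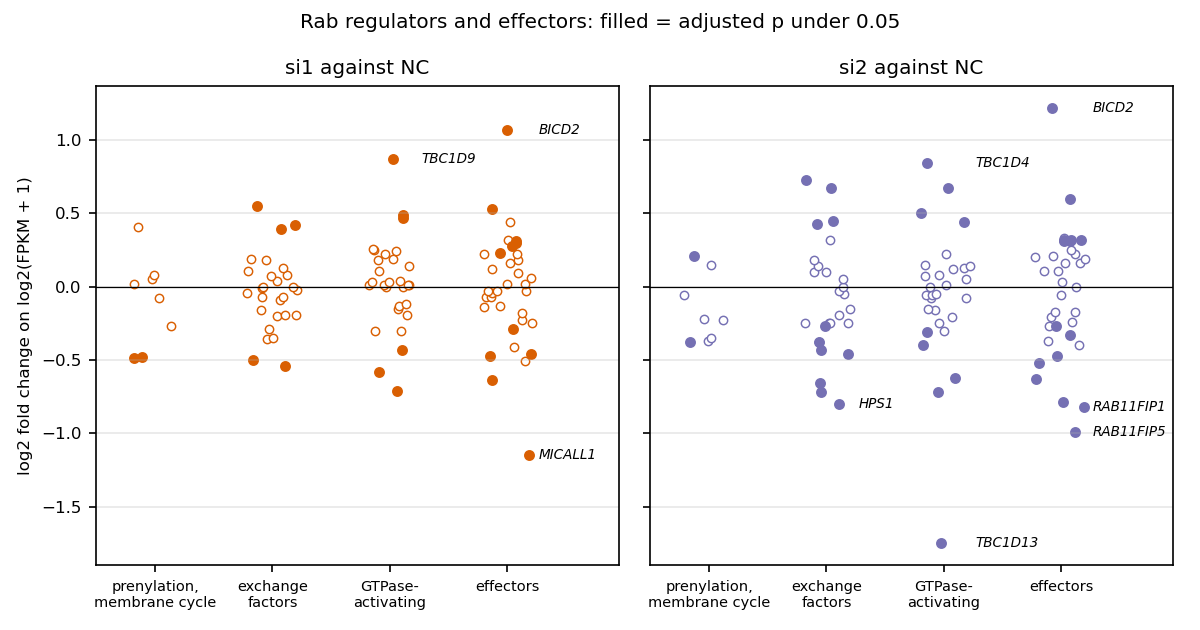
Log2 fold change on log2(FPKM + 1) of each tested gene in 4 lists of Rab regulators and effectors, si1 against NC on the left and si2 against NC on the right; filled points passed an adjusted p of 0.05. Genes named are those that passed with a change of 0.8 or more, with BICD2 highest in both panels and TBC1D13 lowest in si2 at -1.75.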

How the data were processed

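RNA from 6 SK-MES-1 libraries was measured by sequencing, 2 each in si1, si2 and NC. The deposited values are FPKM, made by the authors. Per the submitters' processing notes the build was hg38, and the aligner, counter, annotation and strand setting are not given in the sources used here. FPKM times gene length gave whole reads (100% within 0.001 reads), 14948607 to 17401392 per library. Intervals on levels at 0 use 3 reads and cover counting error only.

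The 12319 genes averaging 1 FPKM or more were tested on log2(FPKM + 1) with limma 3.58.1 in R 4.3.3 (variance trend, all 6 libraries, 3 residual degrees of freedom, two-sided), with Benjamini-Hochberg adjustment over all of them and a threshold of 0.05. The fit of si1 and si2 together was run on simulated counts with a fixed spread and the same changes in both groups. In these data the groups can differ, so that run does not show how well the calls hold. The FPKM unit led to limma voom on recovered reads, chosen after seeing the data, in place of count tests. Rab members and gene lists were chosen with earlier results of these data known. Full statistics went to Rab genes called and their closest relatives, and to up to 4 called genes per direction in each machinery list and contrast. Gene positions equalled GENCODE release 29 (58735 of 58735). Python 3.11.15, pandas 2.3.3, Biopython 1.88 and matplotlib 3.10.9 were used. A result on 1 machinery gene is not reported here.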

Additional observations from a re-analysis of the deposited data

Results flagged for a closer look

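For 10 Rab genes the si2 and si1 libraries lay wholly on opposite sides of both NC libraries, and the difference between si2 and si1 itself passed limma's test at an adjusted p of 0.05. RAB7A (late endosome to lysosome), RAB6A (Golgi), RAB22A (early endosome) and RAB12 (recycling) were higher in si2 and lower in si1 than in NC, with si2 against si1 differences of 0.40, 0.42, 0.51 and 0.57 on log2(FPKM + 1). RAB17 (epithelial recycling), RAB3D (secretory granules), RAB34 (cilia), RAB1A (endoplasmic reticulum to Golgi), RAB29 (LRRK2 recruitment) and RAB32 (lysosome-related organelles) were lower in si2 and higher in si1, with differences of -0.59, -0.49, -0.42, -0.33, -0.32 and -0.30. Of these 10, RAB7A alone also passed against NC in both groups. Some gaps to NC were narrow, such as RAB1A at 65.4 FPKM in si1 replicate 1 and 64.9 FPKM in NC replicate 1. RAB32 was at 60.1 and 59.2 FPKM in those libraries. RAB34 was at 23 FPKM in si2 replicate 1 and 23.3 FPKM in NC replicate 1. RAB6A was at 31 FPKM in si1 replicate 2 and 31.6 FPKM in NC replicate 1. RAB3D was separated narrowly too, with si1 replicate 2 at 2.3 FPKM and NC replicate 2 at 2.29 FPKM. Its si2 against si1 call was lost under 6 of 12 alternatives, and it shares exonic bases with CCDC159, which rose in both groups. The 10 are 23.3% of the 43 members tested, and 16.3% of all genes tested met both conditions.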

How the results depend on the processing

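No called Rab value changed sign under any alternative run. Called under every alternative were 0 of 8 members for si1 and si2 together, 1 of 10 in si1, 4 of 17 in si2 and 10 of 20 for si2 against si1. Without a filter on low values, 58 Rab and 116 machinery genes were tested. Rab counts were then 5, 5, 8 and 13 in those contrasts and machinery counts 14, 13, 22 and 25. Of all 29572 genes tested there, 1127, 1414, 1785 and 3130 passed. With the 4 knockdown libraries as 1 group, 0 Rab genes passed limma (5 at an unadjusted p under 0.05) and 1 machinery gene. In that fit 84 of all 12319 genes passed (1754 at an unadjusted p under 0.05). Voom on recovered reads, chosen after seeing the data, gave 13 of 43 Rab genes for both groups together, beside 3512 of all 12319 genes. With only the 2 groups compared, 6 of 43 Rab genes passed in si1, beside 2318 of all 12319 genes. Leaving out 1 library gave 2 to 12 Rab genes together, 1 to 10 in si1, 7 to 19 in si2 and 11 to 22 for si2 against si1, and 9 to 30, 11 to 23, 19 to 41 and 22 to 38 machinery genes; a lone library is then assumed to vary like the other groups. Calls over all genes tested also fell in every contrast without either NC library or either si2 library. Without either si1 library they rose in si2 against NC, and fell in si1 against NC and in si2 against si1. For both groups together they rose without si1 replicate 1 and fell without si1 replicate 2. The causes were not tested.

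Same-numbered libraries shared little deviation from their group means, with correlations of -0.0577 (si1 and si2), -0.052 (si1 and NC) and 0.0503 (si2 and NC) across genes. Whether same-numbered libraries were cultured or handled together is not stated in the labels, and these values cannot decide it. With a replicate block, 7, 7, 16 and 19 Rab genes and 24, 20, 31 and 33 machinery genes passed in the 4 contrasts. Of all 12319 genes, 2058, 2335, 3121 and 4314 passed with that block. The planned edgeR and DESeq2 alternatives were not run, because the deposited unit is FPKM. Low members rest on few reads, so small differences there were not detectable at this depth.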

Other observations

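Among members under the filter of 1 FPKM, RAB9B and RAB3B stood lower in every knockdown library than in NC. They were chosen after their values were seen. The share of all genes under the filter that lie below NC in this way was not counted. RAB9B, a relative of the late endosomal RAB9A, was at 0.0979 and 0.189 FPKM in si1, 0.203 and 0.124 FPKM in si2 and 0.383 and 0.517 FPKM in NC, on 6 to 34 reads per library. RAB3B, a Rab of secretory vesicles, was at 0.0714 and 0.0552 FPKM in si1, 0.069 and 0.0721 FPKM in si2 and 0.34 and 0.195 FPKM in NC, on 12 to 73 reads per library.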
